A study of Homo sapiens with 13 samples.

Results

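The collagen genes described here are the 44 genes whose symbol reads COL, a number, A and a number and that carry an Ensembl gene identifier, among 61541 such genes in the count tables. They were measured by bulk RNA-seq in RUES2, a line of human embryonic stem cells, in which SMAD4, the shared signal transducer of BMP and Nodal, carries a GFP fusion in every library. The 7 libraries of the time course hold cells taken at 0 h (2 libraries) and after 4, 12, 20, 28 and 42 h (1 library each) with 100 ng/mL BMP4, 5 µM IWP2, which blocks Wnt secretion, and ROCK inhibitor, and were made from total RNA after rRNA depletion. The 6 libraries of the dose response were taken at 5 h and made from polyA RNA. In 5 of them BMP4, IWP2 and ROCK inhibitor were joined by LDN-193189 (LDN below), which inhibits BMP receptor kinases, at 0, 10, 30, 100 or 300 nM, and the sixth was an untreated culture in mTeSR medium, so BMP4, IWP2 and ROCK inhibitor differ together between it and the others. The labels name the treatment for the libraries at 0 h too, which were read as cells collected when it began. Nothing in the labels says whether libraries came from separate cultures, so p-values measure the scatter between these libraries, and in bulk RNA fewer cells of a type and less RNA per cell cannot be told apart.

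Collagens are trimers of alpha chains, secreted and assembled into the extracellular matrix. Types I, II, III, V and XI build fibrils, type IX and its relatives (FACITs, fibril-associated collagens with interrupted helices) sit on the fibril surface, type IV forms the network of basement membranes, type VI forms beaded filaments, and types XIII, XVII, XXIII and XXV span the plasma membrane. Types II, IX and XI are best known from cartilage, whereas type IV is made by most epithelia, including those of the early embryo.

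Levels are given as CPM, counts scaled to a common library total, and as FPKM, which divides by transcript length, wherever genes are compared with each other. Totals ran from 37957385 to 71333471 counts in the time course and from 15600931 to 33989998 in the dose response, so 3 counts, the limit that a count of 0 allows, correspond to 0.0421 to 0.0790 and to 0.0883 to 0.192 CPM. Collagen genes took 0.151 to 0.225% of the counts in the time course and 0.129 to 0.189% in the dose response. Mitochondrial transcripts took 7.60% of the first library at 0 h and 7.89% of the untreated one. The pluripotency factor POU5F1 stood at 1003 and 1721 CPM at 0 h, and the summed amnion markers went from a mean of 27.1 CPM at 0 h to 6180 CPM at 42 h. At a mean of at least 1 CPM, 35 collagen genes entered the tests over time and 34 those over LDN dose, 36 in all. The 8 others stayed low. Of these, COL19A1 reached 2.11 CPM at 42 h, COL6A5 1.25 CPM at 20 h, COL4A3 1.17 CPM at 4 h and COL24A1 1.08 CPM without LDN, and COL3A1, COL8A1, COL15A1 and COL28A1 did not pass 0.640 CPM anywhere.

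Upstream sequence of 5 loci is shown because their transcripts bear the main contrasts below. COL9A2 fell most steeply with LDN, COL13A1 fell with it too, COL9A1 encodes a chain of the same trimer as COL9A2 yet did not pass the LDN test, and the 2 type IV regions each lie between the RefSeq starts of a pair of genes read in opposite directions. The sequences come from RefSeq's promoter table (GRCh38.p14, read 5′ to 3′ on the strand named), cut to the longest stretch of the 250 bases before the start that lies outside every exon of GENCODE 44, and capitals mark GGCGCC, a GC-rich element bound by SMAD1 and SMAD5, and its variant GGAGCC on either strand. The COL9A2 stretch (chr1:40317389-40317536, minus strand) ends 103 bases before the RefSeq start and lies in an intron of longer GENCODE transcripts of the gene. The COL13A1 stretch is chr10:69801656-69801879 on the plus strand, and the COL9A1 stretch is chr6:70303085-70303334 on the minus strand. COL9A1 has 2 promoters in the RefSeq table. The one shown holds 45.6% GC and the other 63.2%, and which of them these cells use was not tested. The stretch between the RefSeq starts of COL4A1 and COL4A2 is chr13:110307158-110307257, which GENCODE 44 places inside COL4A2, outside its exons, since some transcripts of that gene start within the span of COL4A1. The stretch between COL4A6 and COL4A5, in the gap between these genes, is chrX:108439588-108439837, both read on the plus strand towards COL4A2 and COL4A5.
COL9A2: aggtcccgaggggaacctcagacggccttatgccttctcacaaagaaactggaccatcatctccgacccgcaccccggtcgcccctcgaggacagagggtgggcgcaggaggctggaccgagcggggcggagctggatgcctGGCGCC
COL13A1: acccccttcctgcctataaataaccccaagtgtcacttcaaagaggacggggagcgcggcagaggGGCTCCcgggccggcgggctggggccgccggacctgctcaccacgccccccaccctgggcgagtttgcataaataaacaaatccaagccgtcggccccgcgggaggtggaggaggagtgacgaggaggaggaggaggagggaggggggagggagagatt
COL9A1: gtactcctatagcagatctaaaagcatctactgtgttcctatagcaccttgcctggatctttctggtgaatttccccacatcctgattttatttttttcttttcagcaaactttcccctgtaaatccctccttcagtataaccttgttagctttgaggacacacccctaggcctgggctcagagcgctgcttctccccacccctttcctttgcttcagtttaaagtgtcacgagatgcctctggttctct
COL4A1 and COL4A2: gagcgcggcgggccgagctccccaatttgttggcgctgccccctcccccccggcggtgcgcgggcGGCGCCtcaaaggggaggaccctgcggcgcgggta
COL4A6 and COL4A5: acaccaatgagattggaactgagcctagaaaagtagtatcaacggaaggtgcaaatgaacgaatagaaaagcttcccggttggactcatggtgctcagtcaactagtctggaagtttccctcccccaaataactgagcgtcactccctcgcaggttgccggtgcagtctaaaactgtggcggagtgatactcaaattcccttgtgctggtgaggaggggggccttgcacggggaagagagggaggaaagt

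The table held promoters of 32 of the 44 genes. GGCGCC, whose reverse complement is itself, was present in the 250 bases before the start of 13 of their 44 promoters (29.5%) and of 16.4% of all 35116 promoters, with a median GC content of 64.2% against 58.0%. GGAGCC stood in 43.2% against 30.6%, and GTCT, the SMAD box, in 68.2% against 77.5%, both searched on both strands. Among the genes below that fell with LDN, 2 of the 6 with a promoter in the table, COL9A2 and COL11A2, held GGCGCC, and 10 of the 26 other collagen genes did. GGAGCC stood in a promoter of each of these 6 genes, and of 16 of the 32 genes, these 6 included. GTCT stood in all 6 but COL13A1, and in 23 of the 32. Whether any of these elements acts in these cells was not tested.

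Over the time course the collagen genes went apart, some up and as many down. On a straight line over 42 h, 11 of 35 (31.4%) rose and 11 fell by the quasi-likelihood test of edgeR, its p-values adjusted after Benjamini and Hochberg (threshold 0.05), where 19.2% of all 15976 genes tested rose and 17.5% fell. With library totals in place of TMM scaling, which set the median log2 change of all genes from 0 to 42 h at -0.24 instead of -0.01, 7 collagen genes rose and 11 fell, against 13.3 and 25.5% of all genes. A curve of hours and hours squared passed for 29 of the 35, against 47.7% of all genes. The genes that rose were COL9A3, COL11A1, COL4A5, COL4A6, COL16A1, COL17A1, COL25A1, COL26A1, COL5A1, COL6A6 and COL7A1, and those that fell were COL1A1, COL2A1, COL4A1, COL4A2, COL5A2, COL5A3, COL6A3, COL9A1, COL10A1, COL21A1 and COL23A1. The median fitted change over 42 h was 0.19 on the log2 scale over the collagen genes and -0.00 over all genes. In every class with more than 1 gene past the line test, both directions occurred: 2 up and 4 down of 9 fibril-forming genes, 2 and 2 of 8 FACITs, 2 and 2 of 5 type IV genes, 1 and 1 of 4 type VI genes, and 2 and 1 of 4 transmembrane genes.

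**Figure D1:**
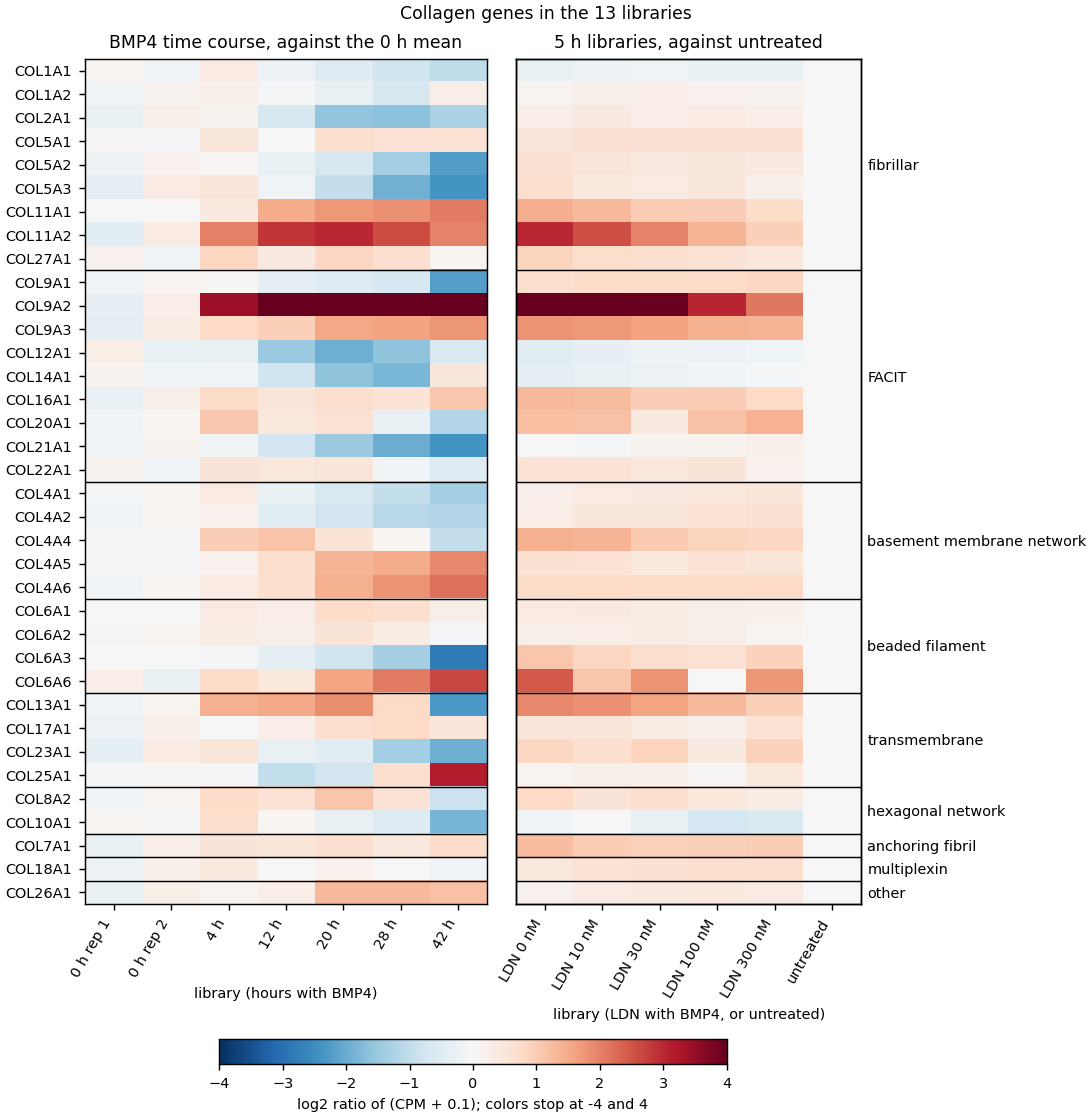
Level of the 36 collagen genes that entered a test, by structural class (rows), in each of the 13 libraries (columns), as the log2 ratio of CPM with 0.1 added to the mean of both 0 h libraries (left) or to the untreated library (right). COL9A2 is dark red and COL11A2 a lighter red from 4 h on, and both pale steadily from 0 to 300 nM LDN. COL5A2, COL5A3, COL6A3 and COL21A1 are blue at 42 h and did not pass the LDN test.

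With LDN the changes were fewer and mostly downward. The slope over the 5 libraries with BMP4 fell for 8 of 34 collagen genes (23.5%) and rose for 4 (11.8%), where 10.4% of all 14907 genes tested fell and 9.59% rose. Those that fell were COL9A2, COL9A3, COL11A1, COL11A2, COL13A1, COL16A1, COL27A1 and COL6A1, and those that rose were COL4A1, COL4A2, COL14A1 and COL18A1. The median fitted change from 0 to 300 nM was -0.05 over the collagen genes and -0.00 over all genes. CPM was lower at each next dose for 7 of the 34 (7.90% of all genes) and higher at each next dose for 4 (6.62%), the 4 that rose by the test.

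Single libraries gave the change at the start and the response to treatment, without a test. At 4 h 3 collagen genes, COL9A2, COL11A2 and COL13A1, were at least 2-fold above the 0 h mean (5.66% of all genes) and 0 were 2-fold below it (0.807%). Those 3 were also among the genes that fell with LDN at 5 h in other libraries. At 42 h 10 were at least 2-fold above 0 h (11.9%) and 12 at least 2-fold below (19.8%). At 5 h 10 of 34 were at least 2-fold higher with BMP4 than in the untreated library (6.14%) and 0 were lower (2.03%). With BMP4 and 300 nM LDN, 3 were at least 2-fold above untreated, COL9A2, COL9A3 and COL20A1 (2.23%), and 0 below (0.645%). The collagen genes lay above the untreated library as a whole. Their median log2 ratio was 0.62 without LDN and 0.52 with 300 nM, against 0.11 and 0.07 over all genes, and 30 of 34 were above 0 without LDN against 61.7% of all genes. The untreated library also lacked IWP2 and ROCK inhibitor and held more mitochondrial counts than the 5 others (4.22 to 4.49%). With totals that leave out mitochondrial genes the medians were 0.57 over the collagen genes and 0.05 over all genes without LDN, and the part of the other agents was not tested.

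Among collagen genes COL9A2 had the largest fitted change both over time and over LDN dose, and the 3 type IX chains moved in 3 ways. COL9A2 (ENSG00000049089, chr1:40300489-40317813) stood at 4.87 and 7.43 CPM in the 0 h libraries, and then at 66.2, 116, 176, 164 and 111 CPM after 4, 12, 20, 28 and 42 h. It was low in both 0 h libraries and above either of them by 4 h, peaked at 20 h and stayed high. The level at 4 h was 10.6-fold and that at 42 h 17.7-fold above the 0 h mean, on CPM with 0.1 added. The straight line did not pass (3.75 ± 1.63 (SE) log2 over 42 h, n = 7 libraries, edgeR adjusted p = 0.105), and the curve did (edgeR adjusted p = 0.00474). The line passed in 4 of 13 alternatives, with DESeq2, with the order of time points and without the 42 h library among them.

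At 5 h COL9A2 stood at 110 CPM without LDN, 72.6 with 10 nM, 42.6 with 30 nM, 22.3 with 100 nM and 11.7 with 300 nM, against 2.63 CPM in the untreated library. Each added step of LDN lowered it, to 66.2, 38.8, 20.3 and 10.6% of the level without LDN, and the untreated library lay at 2.40%. The fitted change from 0 to 300 nM was -3.27 ± 0.07 log2 (SE, n = 5 libraries, edgeR adjusted p = 1.62e-11), the steepest of any collagen gene tested. With BMP4, IWP2 and ROCK inhibitor but no LDN, COL9A2 was 41.7-fold above untreated (95% exact interval of the count ratio 30.7 to 58.3). With 300 nM LDN it was still 4.44-fold above (3.21 to 6.29). These intervals cover counting error only.

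COL9A3 (ENSG00000092758, chr20:62816244-62841159), the alpha-3 chain, rose over the whole course. It stood at 45.0 and 70.9 CPM at 0 h and at 100.4, 113, 169, 179 and 196 CPM from 4 to 42 h, so that every later library lay above both 0 h libraries. The fitted rise was 2.02 ± 0.33 log2 (edgeR adjusted p = 0.00264). LDN lowered it far less than COL9A2, through 121, 115, 105, 93.1 and 87.8 CPM from 0 to 300 nM (-0.48 ± 0.05 log2, edgeR adjusted p = 1.43e-05), and the untreated library held 34.4 CPM. At 300 nM COL9A3 kept 72.7% of its level without LDN. Exons of TCFL5 on the opposite strand cover 3.20% of the exon bases of COL9A3 (TCFL5 reached at most 24.2 CPM), and whether the counting used strand is not given in the sources used here.

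COL9A1 (ENSG00000112280, chr6:70216040-70303084), the alpha-1 chain of the same trimer, went the other way. The 0 h libraries held 17.6 and 20.6 CPM, and the later ones 19.9, 14.9, 13.3, 12.0 and 4.09 CPM in order of time. The first 4 h left it between the 0 h libraries, and all later libraries lay below both (-1.66 ± 0.33 log2, edgeR adjusted p = 0.00585). With LDN it held at 26.8 to 30.7 CPM, a fitted change of 0.17 ± 0.08 log2 (edgeR adjusted p = 0.141). Per length, COL9A2 was at 0.0935 ± 0.0159 (SD, n = 2) of the FPKM of COL9A3 at 0 h, and at 0.897 and 0.487 of it after 12 and 42 h. At 5 h the same ratio went from 0.863 without LDN to 0.602, 0.424, 0.249 and 0.113 as LDN rose, and was 0.0604 untreated. The ratio of COL9A1 to COL9A3 went from 0.251 ± 0.0469 (SD, n = 2) before BMP4 to 0.0155 after 42 h and lay between 0.212 and 0.268 over the LDN doses. The 2 units differ here: from 0 to 300 nM LDN COL9A1 went from 14.95 to 11.38 FPKM but from 26.8 to 30.7 CPM. COL19A1, a FACIT that ends 3571 bases from the end of COL9A1 on the other strand, had 0.079 and 0 CPM at 0 h and 2.11 CPM at 42 h.

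**Figure D2:**
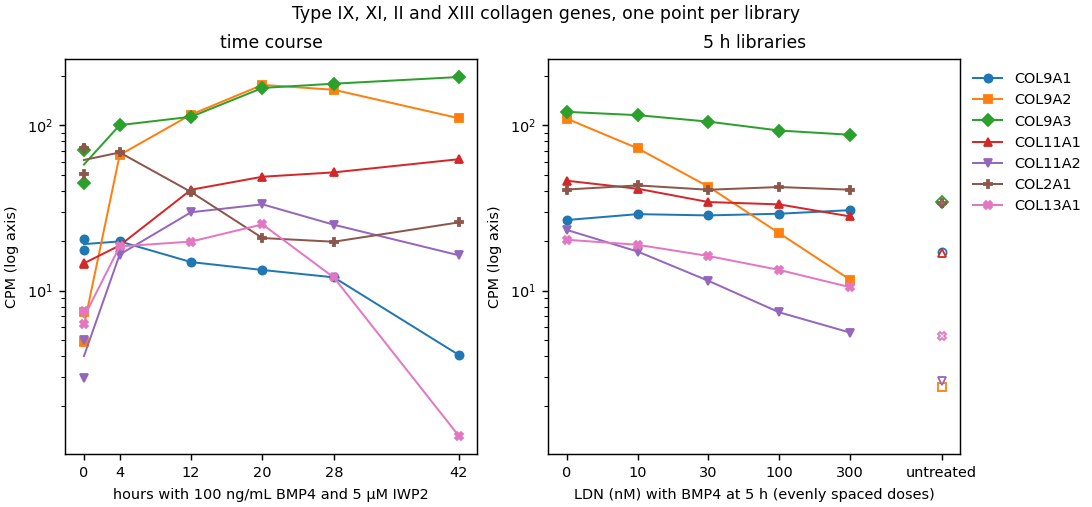
Levels of type IX, XI, II and XIII collagen genes in CPM (log axis), one point per library, over hours with BMP4 (left, lines through the 0 h mean) and over LDN dose at 5 h (right, open points untreated). COL9A2 runs from 110 to 11.7 CPM across the LDN doses while COL9A1 stays between 26.8 and 30.7 CPM, and COL13A1 drops to 1.32 CPM at 42 h.

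The type XI genes, whose chains join those of types II and V in thin fibrils, were higher in every library after 0 h and fell with LDN. COL11A1 stood at 14.6 and 14.7 CPM at 0 h and at 18.8, 40.8, 48.9, 52.0 and 62.4 CPM from 4 to 42 h, higher in each later library (2.47 ± 0.36 log2, edgeR adjusted p = 0.00147). Its levels with rising LDN were 46.2, 41.4, 34.4, 33.3 and 28.1 CPM, with 16.8 untreated (-0.68 ± 0.08 log2, edgeR adjusted p = 4.36e-05). COL11A2 was faster and more sensitive. It went from 2.98 and 5.06 CPM at 0 h to 16.5, 29.8, 33.3, 25.0 and 16.4 CPM in the libraries from 4 to 42 h. The line did not pass (2.07 ± 1.16 log2, edgeR adjusted p = 0.193) and the curve did (edgeR adjusted p = 0.00378). With LDN it stood at 23.3, 17.2, 11.5, 7.40 and 5.58 CPM, with 2.82 untreated (-2.14 ± 0.13 log2, edgeR adjusted p = 1.10e-07). At 300 nM COL11A2 kept 24.0% and COL11A1 60.9% of the level without LDN. The library without LDN, with BMP4, IWP2 and ROCK inhibitor, was set against untreated. Its count ratios were 8.25-fold for COL11A2 (6.08 to 11.5) and 2.75-fold for COL11A1 (2.41 to 3.16).

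COL2A1, the main fibril of cartilage, did not follow COL9A2, COL9A3 and the type XI genes. Like COL9A1, COL2A1 fell over time and did not pass the LDN test. Its 0 h libraries held 50.6 and 72.9 CPM and the later ones 68.6, 39.5, 20.8, 19.8 and 25.9 CPM in order of time, and all libraries from 12 h lay below both 0 h libraries (-1.39 ± 0.43 log2, edgeR adjusted p = 0.0350). That call was lost without either 0 h library, the 4 h or the 28 h one. With LDN it held at 40.8 to 43.3 CPM (-0.01 ± 0.07 log2, edgeR adjusted p = 0.954). Of the cartilage markers, the matrilins MATN1 and MATN3 reached at most 0.26 and 2.44 CPM and COMP 1.46 CPM in any library. SOX9, the regulator of cartilage genes, stood at 38.0 and 30.3 CPM at 0 h and 70.2 CPM at 42 h, and aggrecan, ACAN, at 5.14 and 4.29 CPM and then 25.5 CPM. The summed cartilage list ran from 16.0 to 20.9 CPM over the 5 LDN libraries.

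COL13A1, a transmembrane collagen of cell-matrix junctions, gave a pulse. From 6.30 and 7.54 CPM at 0 h it went to 18.5, 19.8, 25.2, 12.0 and 1.32 CPM over the 5 later libraries, above both 0 h libraries until 28 h and below both at 42 h. The curve passed (edgeR adjusted p = 0.000121) and the line did not (-0.86 ± 1.52 log2, edgeR adjusted p = 0.682). LDN lowered it through 20.3, 18.9, 16.2, 13.3 and 10.5 CPM, with 5.32 untreated (-0.95 ± 0.10 log2, edgeR adjusted p = 1.74e-05). Of the other transmembrane genes, COL23A1 fell over time (3.14 ± 1.09 CPM (SD, n = 2) before BMP4, 0.735 CPM after 42 h, a call lost without the 42 h library) and COL17A1, a hemidesmosome collagen, rose from 2.35 ± 0.53 CPM (SD, n = 2) to 3.35 CPM, a call lost in 8 of 13 alternatives. COL25A1 was at 4.08 and 4.33 CPM at 0 h, 2.10 to 6.82 CPM from 4 to 28 h and 37.5 CPM at 42 h (3.12 ± 0.72 log2, edgeR adjusted p = 0.0115). Its rise rested on the 42 h library, without which the slope was 0.65 log2 (edgeR adjusted p = 0.574). None of these 3 passed the LDN test.

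The type IV genes split by their genomic pairs. COL4A1 and COL4A2 (chr13:110148963-110307157 and chr13:110305812-110513209), the chains of the common basement membrane network, fell together. COL4A1 stood at 101 and 115 CPM at 0 h and at 136, 89.9, 70.3, 55.6 and 41.8 CPM from 4 to 42 h (-1.30 ± 0.19 log2, edgeR adjusted p = 0.00157). For COL4A2 the 0 h levels were 124 and 148 CPM and the later ones 154, 101, 80.0, 63.4 and 60.4 CPM (-1.15 ± 0.22 log2, edgeR adjusted p = 0.00550). Both were highest at 4 h and below both 0 h libraries from 12 h on.

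COL4A5 and COL4A6 (chrX:108439838-108697545 and chrX:108155607-108439497), chains of other type IV trimers, rose over the same hours. COL4A5 stood at 34.1 and 31.6 CPM at 0 h and at 37.4, 51.1, 84.6, 92.2 and 126 CPM from 4 to 42 h (2.305 ± 0.186 log2, edgeR adjusted p = 0.000111). COL4A6 stood at 19.8 and 22.6 CPM at 0 h and at 26.5, 33.5, 56.7, 73.1 and 98.0 CPM from 4 to 42 h (2.58 ± 0.18 log2, edgeR adjusted p = 5.5e-05). Every library from 4 h lay above both 0 h libraries for both genes. Per length, COL4A5 was at 0.521 ± 0.0841 (SD, n = 2) of the FPKM of COL4A1 at 0 h, and at 0.465, 2.02 and 4.04 of it after 4, 20 and 42 h. Within these pairs the FPKM ratios moved much less: COL4A1 to COL4A2 ran between 0.441 and 0.635 over the time course, and COL4A5 to COL4A6 between 1.78 and 2.62.

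The response to LDN also divided the pairs. COL4A1 went from 140 CPM without LDN through 152, 156 and 164 to 169 CPM with 300 nM (0.27 ± 0.05 log2, edgeR adjusted p = 0.00143), and COL4A2 from 124 through 141, 143 and 151 to 158 CPM (0.32 ± 0.05 log2, edgeR adjusted p = 0.00116). COL4A5 lay between 37.0 and 43.3 CPM (-0.09 ± 0.08 log2, edgeR adjusted p = 0.503) and COL4A6 between 32.1 and 33.6 CPM (0.04 ± 0.07 log2, edgeR adjusted p = 0.741). All 4 genes were lowest in the untreated library, at 122, 103, 28.1 and 19.2 CPM, so COL4A1 and COL4A2 were above untreated with BMP4 and higher still with LDN. COL4A4 stayed low, at 1.75 ± 0.06 CPM (SD, n = 2) before BMP4, 3.98 after 12 h and 0.866 CPM after 42 h, and passed the curve (edgeR adjusted p = 0.0254) but not the line. Its curve call was lost without the 12, the 20 or the 42 h library.

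**Figure D3:**
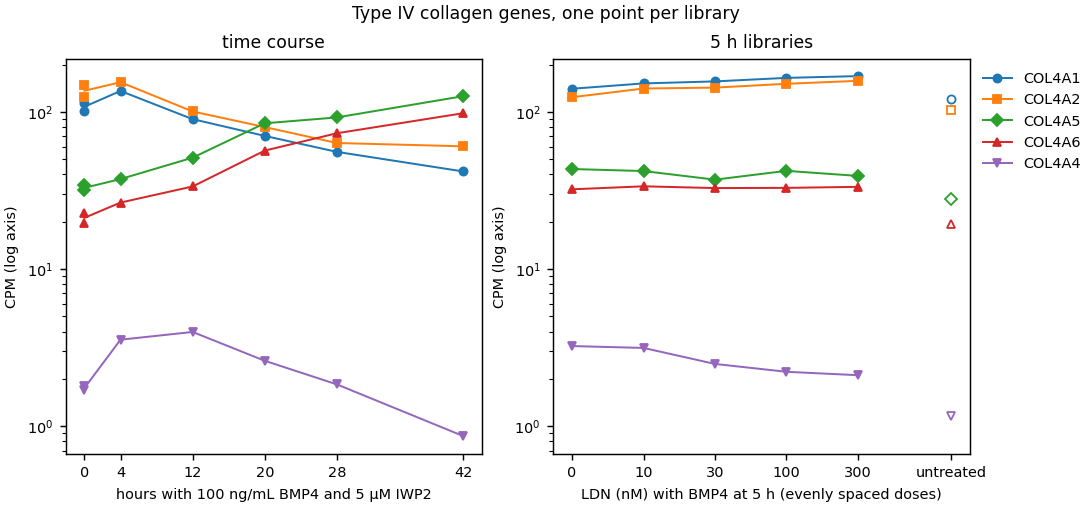
Levels of the 5 type IV genes that entered a test, in CPM (log axis), one point per library, over hours with BMP4 (left, lines through the 0 h mean) and over LDN dose at 5 h (right, open points untreated). COL4A1 and COL4A2 fall from 4 h while COL4A5 and COL4A6 rise, and the pairs cross between 12 and 28 h.

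Among the other fibril-forming genes, COL1A1 fell and COL1A2, its partner chain in type I, did not pass. COL1A1 stood at 181 and 154 CPM at 0 h and at 209, 142, 118, 96.2 and 83.0 CPM from 4 to 42 h (-0.96 ± 0.20 log2, edgeR adjusted p = 0.00750), a call lost when 42 h was set against 0 h as groups (-0.77 log2, edgeR adjusted p = 0.0634). COL1A2 stood at 57.8 and 72.1 CPM at 0 h, between 42.0 and 74.2 CPM from 4 to 28 h and at 77.6 CPM at 42 h (0.19 ± 0.31 log2, edgeR adjusted p = 0.642). COL5A2 fell from 12.6 ± 2.32 CPM (SD, n = 2) to 2.61 CPM and COL5A3 from 2.99 ± 1.06 to 0.490 CPM at 42 h. COL5A1 rose from 31.4 ± 1.53 (SD, n = 2) to 47.1 CPM, a call lost in 5 of 13 alternatives. None of the type I and V genes passed the LDN test. COL27A1 fell with LDN, from 73.2 to 53.3 CPM (-0.43 ± 0.06 log2, edgeR adjusted p = 0.000127). COL3A1, the fibrillar collagen of mesenchyme, stayed at or below 0.278 CPM, and of the fibroblast markers DCN reached 0.02 and LUM 0.88 CPM at most, whereas THY1 reached 294, PDGFRB 70.4 and POSTN 26.5 CPM.

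The remaining FACITs did not move as a group, and COL16A1 rose over time and fell with LDN as COL9A3 did. COL14A1 dipped and returned. The 0 h libraries held 31.0 and 25.0 CPM and the later ones 25.6, 16.2, 9.21, 7.79 and 38.2 CPM in order of time, above both 0 h libraries only in the last. The curve passed (edgeR adjusted p = 0.00175) and the line did not (0.24 ± 0.68 log2), and without the 42 h library the line fell by 2.84 log2 (edgeR adjusted p = 0.000666). With LDN it rose through 21.5, 23.0, 24.4, 26.6 and 27.2 CPM, with 28.5 untreated (0.36 ± 0.08 log2, edgeR adjusted p = 0.00730), and this call was lost without the library at 0 nM (edgeR adjusted p = 0.0567). COL12A1 followed a like dip, from 5.999 ± 1.426 CPM (SD, n = 2) at 0 h to 1.47 CPM after 20 h and 3.91 CPM after 42 h (curve, edgeR adjusted p = 0.00103). COL21A1 fell from 2.24 ± 0.30 CPM (SD, n = 2) to 0.343 CPM at 42 h. COL16A1 rose from 24.9 ± 6.49 (SD, n = 2) to 52.4 CPM at 42 h, a call lost without the 42 h library or with library totals. It fell with LDN from 41.7 to 29.0 CPM (-0.51 ± 0.08 log2, edgeR adjusted p = 0.000738). COL22A1 and COL20A1, at or below 4.00 CPM, passed no test.

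The type VI genes of beaded filaments were 2 abundant chains and several weakly expressed ones. COL6A1 stood at 189 and 188 CPM at 0 h and peaked at 311 CPM at 20 h (curve, edgeR adjusted p = 0.0148), a call lost without the 20 h or the 28 h library. It fell slightly with LDN, from 211 to 194 CPM (-0.14 ± 0.04 log2, edgeR adjusted p = 0.0433), a call lost in 7 of 11 alternatives. COL6A2 ran from 80.9 ± 6.57 CPM (SD, n = 2) at the start to 117 CPM after 20 h and 78.9 CPM after 42 h and passed no test. COL6A3 fell from 5.07 ± 0.13 CPM (SD, n = 2) to 0.621 CPM at 42 h (-2.51 ± 0.36 log2, edgeR adjusted p = 0.00136) and COL6A6 rose from 0.404 ± 0.136 to 3.12 CPM (3.19 ± 0.41 log2, edgeR adjusted p = 0.000858). COL7A1, which forms anchoring fibrils beneath epithelia, rose from 10.7 ± 2.43 CPM (SD, n = 2) to 17.6 CPM, a call lost in 5 of 13 alternatives, and was 2.35-fold higher with BMP4 than untreated (1.97 to 2.82). COL8A2 of the hexagonal networks passed the curve, with 2.23 ± 0.25 CPM (SD, n = 2) at the start, 4.95 CPM after 20 h and 1.18 CPM after 42 h. That call was lost without the 20 h or the 42 h library. COL10A1 fell from 2.46 ± 0.17 CPM (SD, n = 2) to 0.605 CPM in the time course, a call lost without the 4 h or the 42 h library, and was at or below 0.324 CPM in all polyA libraries.

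COL18A1, the basement membrane proteoglycan that releases endostatin, had the highest CPM of all collagen genes, 339 and 464 CPM at 0 h, 530 CPM after 4 h and 363 CPM after 42 h, with no call over time. With LDN it rose from 359 to 418 CPM (0.20 ± 0.05 log2, edgeR adjusted p = 0.0189), a call lost without the library at 0 nM or that at 100 nM. Exons of SLC19A1 on the opposite strand overlap 18.5% of its exon bases, and SLC19A1 reached 78.9 CPM. COL26A1 stood at 67.7 and 96.5 CPM at 0 h and at 88.2, 99.7, 200.3, 204 and 184 CPM from 4 to 42 h (1.74 ± 0.34 log2, edgeR adjusted p = 0.00534). It did not pass the LDN test (0.14 ± 0.07 log2, edgeR adjusted p = 0.172).

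**Figure D4:**
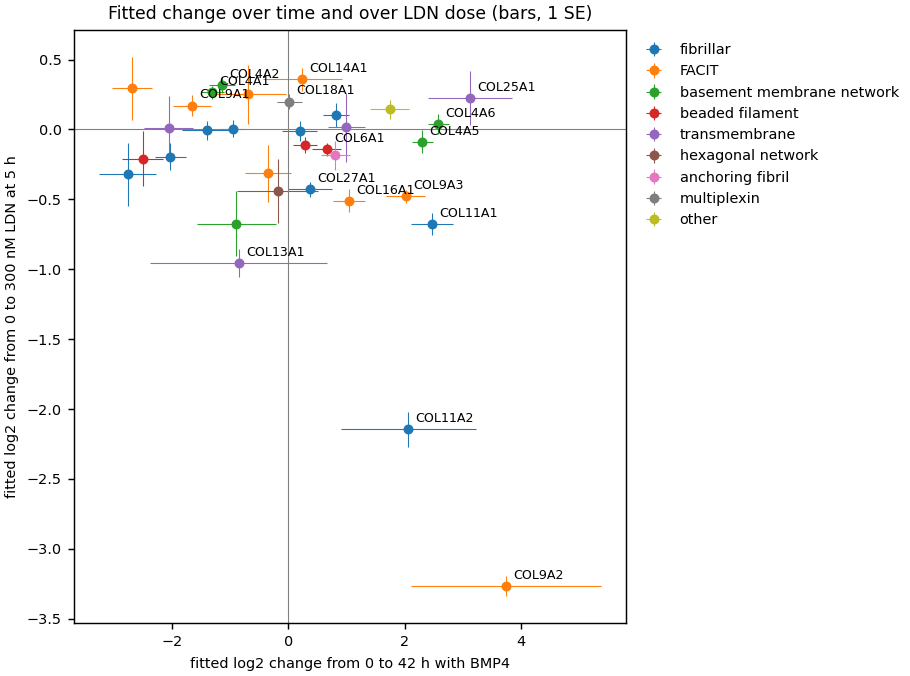
Fitted log2 change from 0 to 42 h with BMP4 (horizontal, 7 libraries) against that from 0 to 300 nM LDN at 5 h (vertical, 5 other libraries) for the collagen genes tested in both, colored by class, with bars of 1 SE. COL9A2 (3.75 and -3.27) and COL11A2 (2.07 and -2.14) stand apart at the lower right, and COL4A1 and COL4A2 lie at the upper left while COL4A5 and COL4A6 lie near 0 on the LDN axis.

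Set side by side, the calls of the time course and of the dose response come from separate libraries. Of the 8 genes that fell with LDN, COL9A3, COL11A1 and COL16A1 rose on the line over time, COL9A2, COL11A2, COL13A1 and COL6A1 passed the curve but not the line, and COL27A1 passed neither. Of the 4 that rose with LDN, COL4A1 and COL4A2 fell over time, COL14A1 passed the curve, and COL18A1 passed neither.

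In the collagen transcript pool the share of type IX grew and those of types XVIII and I shrank. Summed over all 44 genes the level was 453 ± 56.0 FPKM (SD, n = 2) at the start, 706 FPKM after 20 h and 606 FPKM after 42 h, and 516 without LDN, 454 with 300 nM and 354 FPKM untreated. Type IX made up 8.48 ± 1.25% of it (SD, n = 2) at the start and 14.9, 20.4, 23.2, 24.6 and 23.3% of it in the 5 later libraries. At 5 h its share went from 24.8% without LDN through 20.4, 17.7 and 14.7 to 12.9% with 300 nM, and was 6.91% untreated. Type XVIII went from 21.2 ± 2.91% (SD, n = 2) before BMP4 to 13.7% after 42 h, type I from 11.2 ± 1.55% to 7.32%, type II from 4.78 ± 0.04% to 1.45%, and type XXVI from 9.52 ± 1.24% to 14.5%. Type IV moved from 15.9 ± 1.52% (SD, n = 2) to 12.3%, although its leading genes changed places, and type VI lay at 18.8 ± 1.43% (SD, n = 2) at the start, between 18.1 and 20.7% from 4 to 28 h and at 15.7% after 42 h. The genes with the largest shares at 0 h were COL18A1, COL6A1 (12.7%) and COL26A1 (9.52%), and at 42 h COL9A3 (15.5%), COL26A1 (14.5%) and COL18A1 (13.7%).

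**Figure D5:**
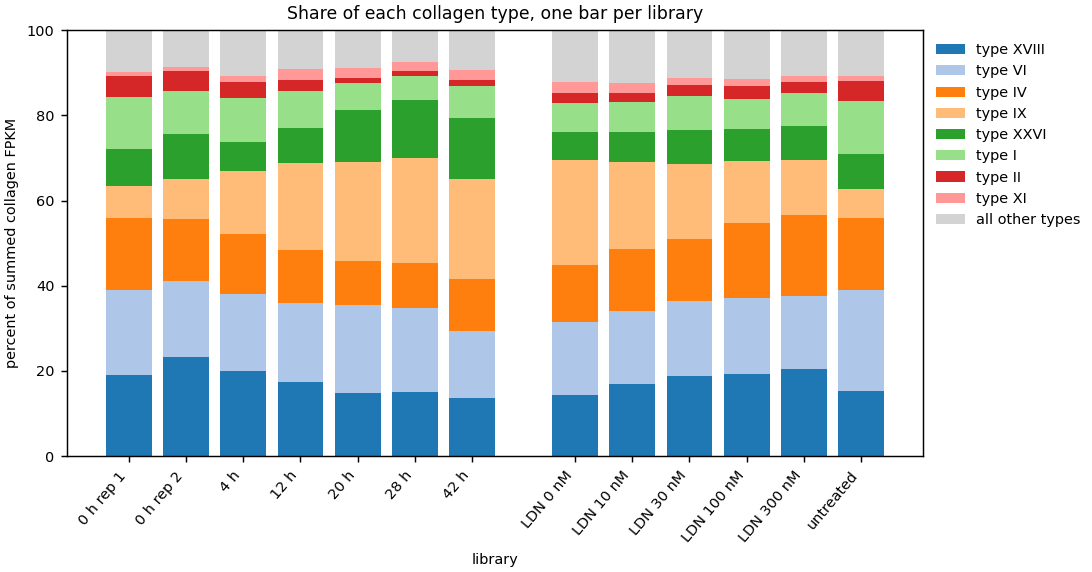
Share of each collagen type in the summed FPKM of the 44 genes (vertical axis, percent), one stacked bar per library, with the time course on the left and the 5 h libraries on the right. The type IX share grows from 8.48% (mean at 0 h) to 24.6% at 28 h and shrinks from 24.8 to 12.9% as LDN rises.

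Genes that make, process and bind collagen were also read, from lists. Of the basement membrane partners, 7 of 10 rose over time and 0 fell, against 19.2 and 17.5% of all genes, with a median fitted change of 1.39 log2. They included the laminin chains LAMB1 (41.3 ± 2.52 CPM (SD, n = 2) before BMP4, 259 CPM after 42 h) and LAMA1 (67.7 ± 5.47 to 194 CPM), the collagen-binding glycoprotein SPARC (199.9 ± 12.7 to 658 CPM) and fibronectin, FN1 (109 ± 19.6 to 5617 CPM). With LDN 2 of the 10 rose and 0 fell, against 9.59 and 10.4% of all genes. Of 19 collagen-modifying enzymes 8 rose and 1 fell over time, and 1 rose and 1 fell with LDN, against the same shares. PLOD2, a lysyl hydroxylase, rose from 15.1 ± 0.15 CPM (SD, n = 2) to 54.1 CPM and fell with LDN (-0.47 ± 0.11 log2, edgeR adjusted p = 0.008). The prolyl hydroxylase subunit P4HA2 rose from 4.41 ± 0.31 to 10.8 CPM and PLOD1 from 33.7 ± 5.24 to 60.2 CPM. The galactosyltransferase COLGALT2 fell from 3.21 ± 0.19 to 0.458 CPM (SD, n = 2 for each 0 h mean).

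Of 12 genes for collagen processing and cross-linking, 4 rose and 2 fell over time (19.2 and 17.5% of all genes), and 2 rose and 4 fell with LDN (9.59 and 10.4%). Among procollagen N-propeptidases, ADAMTS3 rose over time from 4.33 ± 0.84 CPM (SD, n = 2) to 28.1 CPM and ADAMTS14 fell with LDN from 16.7 to 6.94 CPM (-1.29 ± 0.11 log2). The tolloid-like protease TLL2 fell from 2.32 ± 0.23 to 0.392 CPM and the lysyl oxidase LOXL3 from 22.9 ± 6.84 to 4.36 CPM (SD, n = 2). Of the collagen receptors 2 of 8 rose and 1 fell over time, near those shares of all genes, and 0 of 7 rose and 3 fell with LDN. The adhesion receptor ADGRG1 rose from 1.26 ± 0.22 (SD, n = 2) to 36.0 CPM and integrin ITGB1 from 231 ± 10.1 to 449 CPM, ITGA2 fell from 10.7 ± 1.68 to 2.14 CPM, and the uptake receptor MRC2 fell with LDN from 66.0 to 42.7 CPM. Of 4 proteases tested, MMP2 rose from 48.3 ± 4.17 (SD, n = 2) to 132 CPM and fell with LDN from 106 to 55.5 CPM, MMP14 rose from 35.8 ± 0.89 to 161 CPM, and MMP9 fell from 2.90 ± 0.64 to 0.539 CPM.

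Markers of other cell types moved over the same hours. The summed pluripotency list went from a mean of 6709 CPM at 0 h to 3273 CPM at 42 h. Within it LIN28A went from 3017 and 2966 to 1806 CPM, and POU5F1 from 1003 and 1721 to 1145 CPM. SOX2 fell from 389 and 375 to 11.6 CPM and NANOG from 146 and 116 to 1.08 CPM. PRDM14 fell from 53.7 and 63.9 to 0.196 CPM and TDGF1 from 613 and 576 to 11.7 CPM. The mesenchyme and fibroblast list went from 287 to 93.9 CPM. The endothelial list went from 76.9 to 7.75 CPM and the neural list from 617 to 421 CPM. Within the mesenchyme list THY1 went from 249 and 294 to 25.8 CPM, while PDGFRB went from 6.24 and 7.32 to 41.9 CPM and POSTN from 1.21 and 1.14 to 19.8 CPM. In the endothelial list KDR went from 68.2 and 60.4 to 6.06 CPM and TEK from 12.6 and 12.2 to 1.39 CPM. PECAM1 and CDH5 reached at most 0.16 and 0.29 CPM in any library. In the neural list TUBB3 went from 250 and 323 to 66.8 CPM, while NES went from 306 and 353 to 354 CPM. PAX6 and SOX1 reached at most 1.26 and 0.41 CPM. The primitive streak and mesoderm list stayed between 3.06 and 10.0 CPM, with TBXT at or below 0.29 CPM. Over the 5 LDN libraries the amnion list went from 203 CPM without LDN to 34.0 CPM with 300 nM. The pluripotency list ran from 5941 to 6297 CPM over them. Within it, from 0 to 300 nM, PRDM14 went from 14.6 to 76.3 CPM and SOX2 from 338 to 428 CPM. POU5F1 went from 2391 to 2319 CPM and LIN28A from 1847 to 1751 CPM. The part of these changes in cell state in the levels of the collagen genes was not tested.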

How the data were processed

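The members and all gene lists were chosen with earlier results of these data known. The authors trimmed reads with Cutadapt, aligned them with STAR 2.7.8a to GRCh38 and deposited RSEM 1.3.3 expected counts, as whole numbers, and FPKM, normalized to transcript length and library size. The annotation release and strandedness are not given in the sources used here. In this work 5 features of 61546 that name no genomic gene were left out. CPM was computed from the deposited counts on library totals. Genes at a mean of at least 1 CPM were tested with edgeR 4.0.16 (R 4.3.3; TMM, quasi-likelihood, Benjamini-Hochberg, 0.05): a slope on hours, hours with hours squared, and a slope on log2(1 + LDN/10), scaled so that estimates are log2 changes over the whole range. SE is the estimate over the root of F. Ratios between single libraries are on CPM with 0.1 added, with no test, and intervals of count ratios are exact binomial. Alternatives were DESeq2 1.42.0, other scalings, filters, pseudocounts and covariates (the study's SMAD4 signaling integral among them), and each library left out. Named genes are all members at 1 CPM, and up to 4 per list with the largest slopes past a test. The tests were tried on simulated counts. Gene positions are from GENCODE 44 on GRCh38, upstream sequence from RefSeq (GRCh38.p14).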

Additional observations from a re-analysis of the deposited data

How the results depend on the processing

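Calls that held under every alternative were 13 of 22 for the line over time, 20 of 29 for the curve and 9 of 12 for LDN. With library totals in place of TMM, 7 collagen genes rose over time instead of 11, and 13.3% of all genes instead of 19.2%. Leaving out 1 library at a time gave 8 to 10 that rose and 9 to 11 that fell over time, 20 to 30 past the curve, and 7 to 9 that fell and 2 to 5 that rose with LDN, the 2 without the library at 0 nM. The count at least 2-fold higher at 4 h was 3 against the mean of both 0 h libraries, 6 without replicate 1 and 5 without replicate 2, and at 42 h 8 to 10 higher and 11 to 12 lower. Without a filter on low counts 1 collagen gene was at least 2-fold lower with BMP4 than untreated. The line of COL14A1 ran from -2.84, without the 42 h library, to 0.56 with 1 library left out. The rises of COL5A1 and COL7A1 were lost without either 0 h library or the 42 h one, and with library totals, and that of COL17A1 without 0 h replicate 1 or the 4, 12, 20 or 28 h library. The curve was lost for COL4A4, COL8A2, COL9A1, COL10A1, COL16A1, COL17A1, COL23A1 and COL5A1 without the 42 h library, for COL6A1 without the 20 or the 28 h one, and in COL4A4, COL8A2, COL16A1, COL17A1 and COL5A1 without others too. The cause was not tested. In CPM, not per length, the type IX share was 5.05% at 0 h and 15.5% at 42 h, and the type IV share 18.4 and 16.3%. No paired analysis was possible because no group other than 0 h has a second library. Totals without mitochondrial genes, chosen after seeing the data, changed no count of collagen genes past 2-fold. Times after 0 h and all 5 h conditions have 1 library each, so their spread is not known.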
